A study of Mus musculus with 15 samples.

Results

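The data described here are the transcript levels of 41 mouse genes that act in the G2 and M phases of the cell cycle, as measured by RNA sequencing of embryonic pancreas. The genes were taken by symbol from the 25292 genes of the count table, through the Ensembl gene IDs of the GENCODE M21 annotation. All 41 were found, all are protein-coding, and all carried enough reads to be tested among 16245 genes. There were 15 libraries in 5 groups of 3, each library made from a pool of up to 3 organs or explants alike in genotype or treatment. All 15 libraries carry the strain label C57/Bl6J. In the wt group, pancreata were taken fresh at 14.5 days post coitum (dpc). The S1pr2 null group was of the same stage, labelled null for S1pr2, a receptor for the signalling lipid sphingosine-1-phosphate, and came from the S1pr2 tm1Rlp line, in which a Neo cassette interrupts the first exon of the gene. The other 3 groups were explants of wt dorsal pancreatic buds of that stage kept for 2 days at the border of medium and air (ALI culture). Control explants received the standard medium, JTE explants 15 μM JTE013, an S1pr2 antagonist, and JTE + CTGF explants 15 μM JTE013 together with CTGF, connective tissue growth factor, at 50 ng/ml. No label gives the sex of the embryos or a sequencing batch.

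A cell enters mitosis when Cdk1, bound to cyclins A and B, is switched on, with the help of the phosphatase Cdc25c and the kinases Plk1 and Aurka. Chromosomes condense, the spindle is built by kinesins and microtubule-binding proteins, and kinetochores on the centromeres attach chromosomes to it. The checkpoint of Bub1, Bub1b, Mad2l1 and Ttk holds back the anaphase promoting complex until attachment is complete. That complex, with Cdc20 and Ube2c, then marks cyclins for destruction, and the midzone and contractile ring proteins divide the cell. Most of these transcripts are made only late in the cell cycle, so their bulk level follows the share of cycling cells, and several are used as markers of proliferation. The embryonic pancreas of this stage holds dividing progenitors in its epithelium and a dividing mesenchyme, while endocrine cells leave the cell cycle as they form.

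Depth was similar in all groups, at 11402804 to 13828737 reads assigned to genes per library, and the common biological coefficient of variation was 7.30%. S1pr2 itself gave 1368 to 1609 reads in the 3 libraries labelled S1pr2 null and 796 to 858 in wt. Counts per gene do not separate the interrupted exon from the rest, so they do not check the label. Every direction given for the libraries labelled S1pr2 null therefore rests on the label. The 6 pancreas markers listed for a check of the tissue (Pdx1, Ptf1a, Sox9, Nkx6-1, Cpa1 and Neurog3) were read in every group. No library was a copy of another, since counts within each group varied beyond sampling (chi-square per gene from 2.28 up to 21.6). The highest value lay between JTE 2 and JTE 3. In JTE the library JTE 3 held the highest level of 29 of the 41 genes and JTE 2 the lowest of 34. JTE + CTGF 2 was highest for 33 and JTE + CTGF 1 lowest for 30.

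The promoters of these genes are shown because the genes moved together. Genes of the late cell cycle are known to carry a cell cycle genes homology region (CHR), read by complexes with B-Myb and Foxm1, and CCAAT boxes, read by NF-Y. A promoter window ran from 250 bases before to 50 bases after the annotated start of a gene in the RefSeq annotation of GRCm38.p6, and 34 of the 41 genes had one, 36 windows in all. The CHR was searched as TTTGAA or TTCGAA and the CCAAT box as CCAAT, both on either strand. A CHR was found in 83.3% of the members' windows and in 19.2% of all 32851 windows, and a CCAAT box in 77.8% and 37.4%. A window with a CHR and at least 2 CCAAT boxes was found for 52.8% of the members' windows and 2.31% of all. The CHR began between 100 bases before and 50 bases after the start in 80.6% of the members' windows, against 8.59% of all. The CCAAT box lay further from the gene than a CHR in 72.2% and 4.01%. Birc5, Mad2l1, Nuf2 and Nusap1 had neither motif in the window. A match is a run of letters and not a measured binding site.

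The 6 promoters printed are those with most matches among the genes that the naming rule gives. That of Spc25 was added after its values were seen, because Spc25 was the 1 member whose fall with JTE did not pass the test. Ccnf has as many matches as Aspm and is not printed. Each runs 5′ to 3′ on the strand of its gene, from 250 bases before the start, with CHR and CCAAT matches of either strand in capitals and all else in lower case. The windows are chr11:99024160-99024439 (minus strand) for Top2a, chr2:164769679-164769958 (plus strand) for Ube2c, chr9:70421525-70421804 (minus strand) for Ccnb2, chr10:69352883-69353162 (minus strand) for Cdk1, chr7:135716350-135716629 (minus strand) for Mki67, chr1:139454523-139454802 (plus strand) for Aspm and chr2:69206184-69206463 (minus strand) for Spc25, with 280 bases each.
Top2a: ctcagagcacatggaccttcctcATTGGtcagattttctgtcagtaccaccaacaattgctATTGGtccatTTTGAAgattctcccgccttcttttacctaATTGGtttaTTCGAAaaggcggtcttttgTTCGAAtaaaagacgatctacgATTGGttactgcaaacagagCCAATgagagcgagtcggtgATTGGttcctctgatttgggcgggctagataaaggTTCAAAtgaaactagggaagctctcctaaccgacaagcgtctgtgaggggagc
Ube2c: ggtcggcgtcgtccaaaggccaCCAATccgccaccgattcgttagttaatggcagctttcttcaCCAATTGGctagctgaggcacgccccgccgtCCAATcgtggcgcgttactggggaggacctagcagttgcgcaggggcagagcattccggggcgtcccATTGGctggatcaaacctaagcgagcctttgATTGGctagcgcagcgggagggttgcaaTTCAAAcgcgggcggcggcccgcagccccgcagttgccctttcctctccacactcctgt
Ccnb2: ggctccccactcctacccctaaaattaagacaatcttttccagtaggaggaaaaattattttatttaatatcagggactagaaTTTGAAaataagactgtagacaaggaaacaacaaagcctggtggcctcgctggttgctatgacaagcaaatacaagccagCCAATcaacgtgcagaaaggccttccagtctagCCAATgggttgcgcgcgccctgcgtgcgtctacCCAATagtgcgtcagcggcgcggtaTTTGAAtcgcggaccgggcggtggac
Cdk1: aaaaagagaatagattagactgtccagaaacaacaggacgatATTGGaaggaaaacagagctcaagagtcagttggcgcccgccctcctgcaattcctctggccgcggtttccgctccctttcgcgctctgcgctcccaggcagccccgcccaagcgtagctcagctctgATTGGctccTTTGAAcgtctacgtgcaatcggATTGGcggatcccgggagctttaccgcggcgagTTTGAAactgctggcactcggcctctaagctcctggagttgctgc
Mki67: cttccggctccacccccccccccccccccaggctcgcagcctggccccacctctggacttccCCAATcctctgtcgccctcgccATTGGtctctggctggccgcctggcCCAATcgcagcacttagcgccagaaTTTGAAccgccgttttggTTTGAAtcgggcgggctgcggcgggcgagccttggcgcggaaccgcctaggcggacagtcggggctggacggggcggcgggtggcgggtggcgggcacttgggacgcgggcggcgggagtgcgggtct
Aspm: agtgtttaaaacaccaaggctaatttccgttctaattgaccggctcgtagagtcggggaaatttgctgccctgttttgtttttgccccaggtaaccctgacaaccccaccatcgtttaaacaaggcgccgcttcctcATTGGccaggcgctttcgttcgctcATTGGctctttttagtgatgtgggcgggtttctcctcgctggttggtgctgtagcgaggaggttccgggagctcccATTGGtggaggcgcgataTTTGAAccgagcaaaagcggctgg
Spc25: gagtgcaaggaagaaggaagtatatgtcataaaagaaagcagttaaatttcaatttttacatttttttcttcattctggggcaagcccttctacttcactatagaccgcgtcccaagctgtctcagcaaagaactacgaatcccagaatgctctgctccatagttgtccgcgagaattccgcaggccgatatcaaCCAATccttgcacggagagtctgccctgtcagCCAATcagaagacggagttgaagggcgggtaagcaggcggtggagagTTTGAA
The Top2a window held 4 CHR and 6 CCAAT matches, and that of Ube2c 1 CHR and 6 CCAAT, 2 of which overlap on opposite strands. In Spc25 there were 2 CCAAT boxes and 1 CHR, the CHR 24 bases after the start. Spc25 thus held both motifs.

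In fresh pancreas the 41 genes together took 0.53% to 0.553% of all counted reads in wt and 0.514% to 0.53% in the libraries labelled S1pr2 null. The share was 0.258% to 0.287% in control explants, 0.154% to 0.187% in JTE and 0.126% to 0.152% in JTE + CTGF. The 3 cultured groups did not overlap one another or the fresh groups. In these bulk samples, fewer cycling cells and less RNA per cycling cell cannot be told apart. Per length, as counts per kilobase of exon scaled to library size (CPM per kb), Cdc20, which activates the anaphase promoting complex, had the highest wt level of the 41 at 98.8, followed by Ccnb2, the second B-type cyclin, at 64.3 and Top2a at 61.4. Aspm, which acts at the spindle poles, had the lowest at 5.72, below Ccnb1 at 11.5 and Cenpf at 12.4. In JTE + CTGF, Cdc20 was still the highest at 22.8 and Aspm the lowest at 1.26. Of the 50-base words of Cdc20, 10.6% also occur in other genes, mainly a pseudogene, so its level is uncertain. Ccna2 shares 11.4% of its words, mainly with Exosc9, a protein-coding gene that overlaps it on the opposite strand. Cdc25c shares 11.9%, mainly with the protein-coding gene Gm3550, so the levels of both are uncertain too. The median coefficient of variation within a group ran from 1.98% to 12.7% over the 41 genes. In 41 of 41 genes all 6 fresh libraries lay above all 9 cultured libraries, and in 40 of 41 all 3 control libraries lay above all 6 libraries with JTE. The share over all genes was not computed for these 2 groupings. For single pairs of groups, control lay entirely below wt for 33.1% of all tested genes, and JTE entirely below control for 28.3%.

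**Figure D1:**
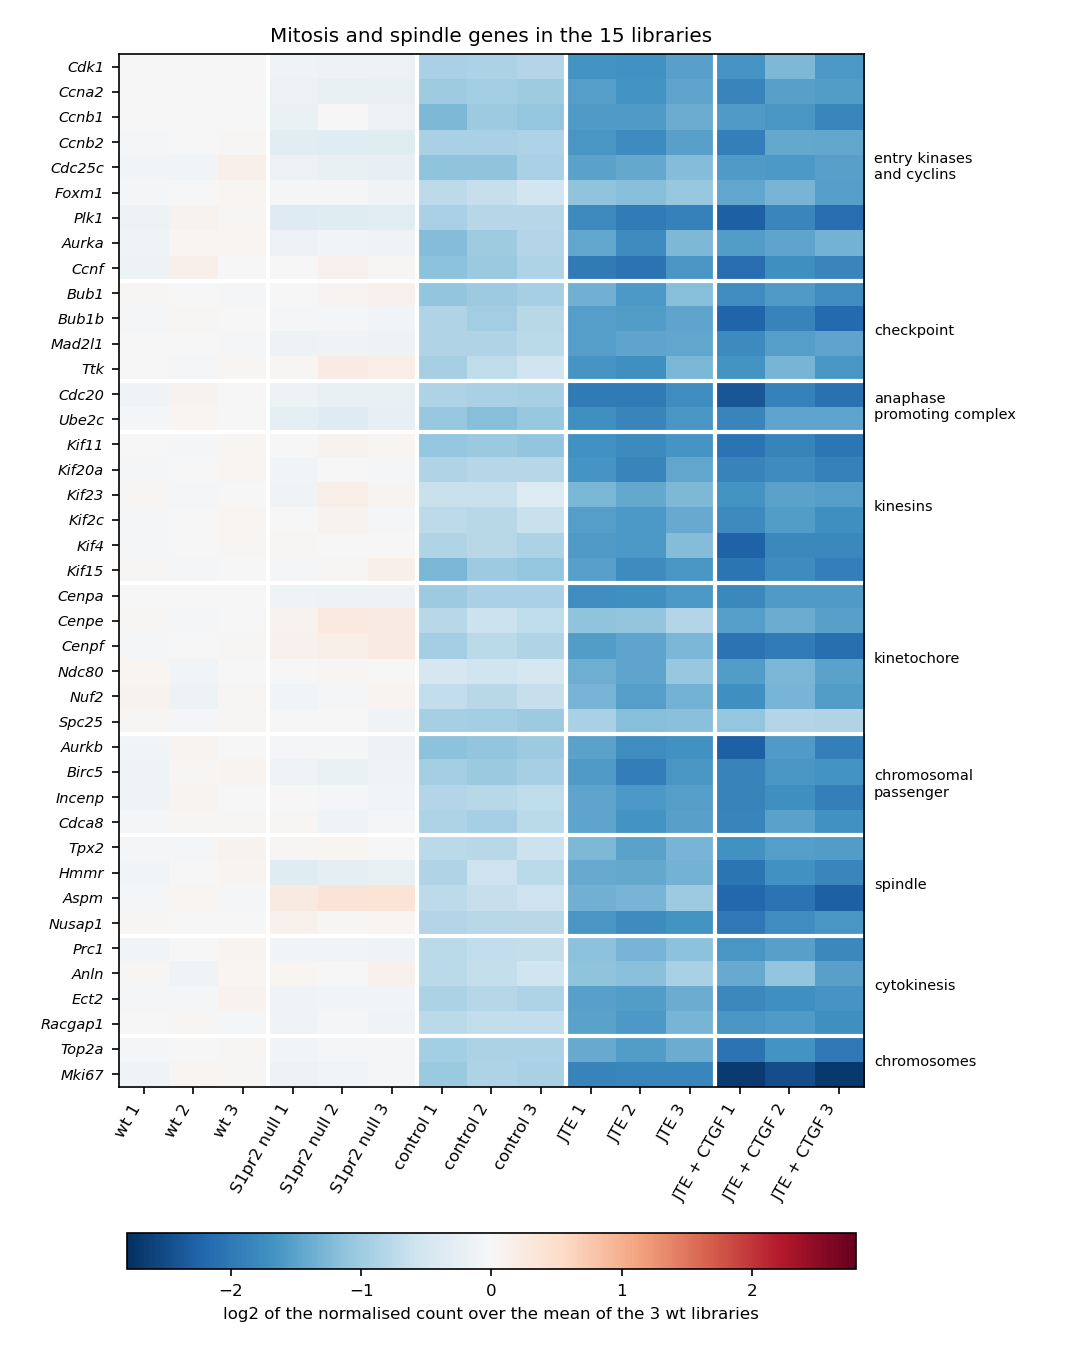
Each row is 1 of the 41 genes, grouped by role, and each column 1 of the 15 libraries. Colour gives the log2 of the normalised read count over the mean of the 3 wt libraries. The fresh libraries are near 0, control explants are below them in all 41 rows, and both JTE groups are lower again in every row but that of Spc25.

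The following 7 genes stand for the roles and, with Spc25, are given in every library, as normalised read counts, which are counts scaled to a common effective library size. Cdk1 is the kinase that starts mitosis. Normalised Cdk1 counts were 1826, 1863 and 1858 in wt and 1709, 1672 and 1658 in the libraries labelled S1pr2 null. In the explants, Cdk1 stood at 988, 1007 and 1041 in control, 581, 573 and 648 with JTE and 587, 774 and 603 with JTE and CTGF. The Cdk1 levels of wt lay above those labelled S1pr2 null, those above control and those above both JTE groups, while JTE and JTE + CTGF overlapped. Ccnb1 is the B-type cyclin that activates Cdk1. Normalised Ccnb1 counts were 611, 603 and 611 in wt and 533, 608 and 544 in the libraries labelled S1pr2 null. In the explants, Ccnb1 stood at 253, 301 and 288 in control, 204, 203 and 232 with JTE and 202, 198 and 172 with JTE and CTGF. The 2 fresh groups overlapped, and each step from fresh to control, JTE and JTE + CTGF was free of overlap. About 23.4% of the 50-base words of Ccnb1 also occur at a pseudogene, so its count is uncertain. Plk1 is a kinase that promotes entry, centrosome maturation and cytokinesis. Normalised Plk1 counts were 1421, 1665 and 1588 in wt and 1218, 1240.1 and 1256 in the libraries labelled S1pr2 null. In the explants, Plk1 stood at 827, 891 and 899.8 in control, 453, 402 and 420.4 with JTE and 319, 441 and 354 with JTE and CTGF. The wt libraries lay above those labelled S1pr2 null, and the explant groups with JTE overlapped each other below control. A pseudogene shares 10.4% of its words.

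Foxm1 encodes a transcription factor that drives many late cell cycle genes. Normalised Foxm1 counts were 1244, 1310.3 and 1337 in wt and 1242, 1252 and 1206 in the libraries labelled S1pr2 null. In the explants, Foxm1 stood at 781, 829 and 889 in control, 598, 571 and 621 with JTE and 472, 529 and 448 with JTE and CTGF. Fresh groups overlapped, and control, JTE and JTE + CTGF followed below without overlap. Aurkb is the kinase of the chromosomal passenger complex, which corrects faulty attachments. Normalised Aurkb counts were 1262, 1408 and 1327 in wt and 1309, 1287 and 1205 in the libraries labelled S1pr2 null. In the explants, Aurkb stood at 598, 620.3 and 655 in control, 471, 398 and 409 with JTE and 272, 444 and 354 with JTE and CTGF. Control lay below both fresh groups and above both JTE groups, and the latter overlapped. Top2a untangles DNA strands of sister chromosomes. Normalised Top2a counts were 6735, 6997 and 7098 in wt and 6549, 6642 and 6771 in the libraries labelled S1pr2 null. In the explants, Top2a stood at 3603, 3783 and 3780.3 in control, 2594, 2353 and 2664 with JTE and 1662, 2161 and 1734 with JTE and CTGF. Only the fresh groups overlapped. Mki67 encodes the Ki-67 protein, which coats mitotic chromosomes and is the usual stain for proliferation. Normalised Mki67 counts were 5152, 5715 and 5625 in wt and 4965, 5180.1 and 5327 in the libraries labelled S1pr2 null. In the explants, Mki67 stood at 2667, 3024 and 2928 in control, 1506, 1552 and 1539 with JTE and 854, 984 and 845 with JTE and CTGF. Again only the fresh groups overlapped, and JTE + CTGF was lowest. Spc25 is a subunit of the Ndc80 complex, the microtubule-binding part of the kinetochore. Normalised Spc25 counts were 706, 664 and 704 in wt and 699.7, 693 and 649 in the libraries labelled S1pr2 null. In the explants, Spc25 stood at 362, 359 and 343 in control, 370.3, 303 and 306 with JTE and 328, 393 and 386 with JTE and CTGF. Control, JTE and JTE + CTGF all overlapped, while every explant lay below every fresh pancreas.

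**Figure D2:**
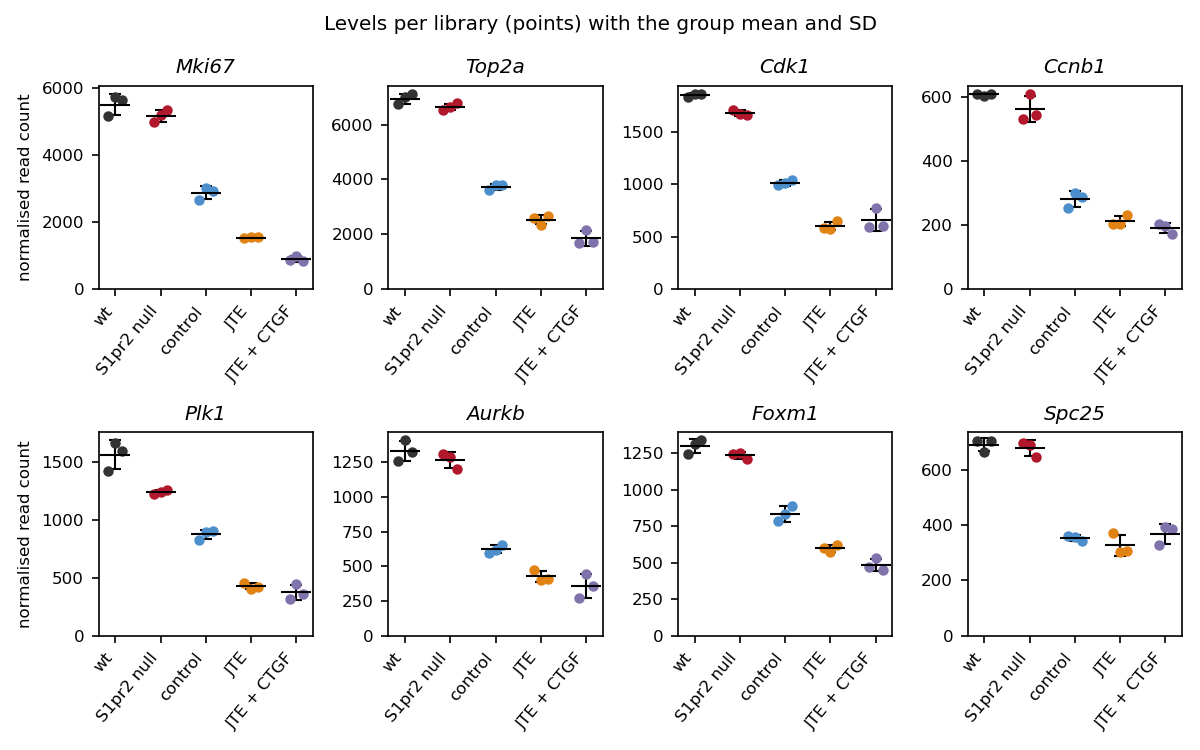
Points are the normalised read counts of 8 genes in the 15 libraries, with the mean and SD of each group of 3 as bars, and each vertical axis starts at 0. Mki67, Top2a, Cdk1, Ccnb1, Plk1, Aurkb and Foxm1 step down from fresh pancreas to control and to JTE, while the 3 explant groups overlap for Spc25.

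The comparison of genotypes asked whether mitotic transcripts depend on S1pr2 in the embryo. In the libraries labelled S1pr2 null, 5 of the 41 genes were lower than in wt and 2 were higher at an edgeR adjusted p below 0.05, where 13.3% of all tested genes were lower and 12.6% higher, 25.8% in all. Every library labelled S1pr2 null lay below every wt library for 13 of the 41 and above for 4, as for 23.8% and 22.5% of all genes. The median log2 fold change of the 41 was −0.059, against −0.012 over all genes tested. Of the 9 entry kinases and cyclins, 3 were lower. Plk1 changed by −0.33 ± 0.079 (SE, edgeR adjusted p = 0.00523), Ccnb2 by −0.32 ± 0.079 (SE, edgeR adjusted p = 0.007) and Ccna2, the A-type cyclin, by −0.20 ± 0.064 (SE, edgeR adjusted p = 0.0328). Ccnb2 stood at 1219, 1245 and 1265 in wt and 1019.6, 982 and 989 in the libraries labelled S1pr2 null, with no overlap. Ube2c, the ubiquitin-conjugating enzyme of the anaphase promoting complex, changed by −0.28 ± 0.077 (SE, edgeR adjusted p = 0.0118), and Hmmr, a spindle assembly factor, by −0.26 ± 0.074 (SE, edgeR adjusted p = 0.0138). Ube2c counts were 1827, 1988 and 1919 against 1589, 1488 and 1629, again without overlap. Ube2c shares 16% of its words with the overlapping gene Tnnc2, and its call was lost without wt 2 (edgeR adjusted p = 0.0567) or S1pr2 null 2 (edgeR adjusted p = 0.0628).

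The 2 higher genes were Aspm, at 812, 862 and 801 in wt and 976, 1063 and 1075 in the libraries labelled S1pr2 null, and Cenpe, a kinetochore kinesin, at 1384, 1298 and 1367 and 1439, 1636 and 1590.0. Neither overlapped between the groups. Aspm changed by 0.33 ± 0.071 (SE, edgeR adjusted p = 0.0024) and Cenpe by 0.20 ± 0.072 (SE, edgeR adjusted p = 0.0446). Cenpf, a large coiled-coil protein of the outer kinetochore, had the next highest value, 0.17 ± 0.064 (SE, edgeR adjusted p = 0.0571), and did not pass, though it did in 3 fits that each left out 1 library (without control 1, JTE 1 or JTE 3, with an edgeR adjusted p of 0.0484, 0.046 and 0.0232) and when only the libraries compared were fitted. The Cenpe call was lost in 6 fits that each left out 1 library, with an edgeR adjusted p of up to 0.168. Aspm, Cenpf and Cenpe are long genes, with 11491, 11353 and 7813 bases of exon, and across the 41 genes the Spearman correlation of length and log2 fold change was 0.43 in this comparison, against 0.17 across all genes tested. With an offset for length, added after seeing the data, Cenpe did not pass (0.14, edgeR adjusted p = 0.133), and the part of length in these values was otherwise not tested. The remaining classic markers lay close to wt, with −0.092 for Mki67, −0.061 for Top2a, −0.14 for Cdk1, −0.12 for Ccnb1, −0.073 for Aurkb and −0.073 for Foxm1, none of which passed the test. Over the 34 genes that did not pass, the 95% intervals lay between −0.38 and 0.37. None of the 4 checkpoint genes, 6 kinesins, 4 passenger complex genes, 4 cytokinesis genes or 2 chromosome genes passed. The summed level of the 8 epithelial markers was 19312 to 20389 in the libraries labelled S1pr2 null and 26129 to 28192 in wt, 7 of the 8 were lower and none was at 0. The 6 pancreas markers summed to 18971 to 19859 and 31266 to 42828, with 2 of 6 lower, and the 9 mesenchymal markers to 109474 to 129390 and 136238 to 138476, with 5 of 9 higher and 2 lower. The part of these cell types in the mitotic genes was not tested. The counts here depended on single libraries, with 3 to 7 lower and 1 to 3 higher when 1 of the 15 was left out.

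Explants were set against fresh wt pancreas to see what 2 days of culture do. All 41 genes were lower in control explants than in wt (edgeR adjusted p below 0.05), where 29.3% of all tested genes were lower and 28.5% higher, 57.8% in all. For all 41 no control library reached any wt library, as for 33.1% of all genes, with 30.7% entirely above. The median log2 fold change was −0.85 (−0.023 over all genes), and the summed level of the 41 changed by −44.7%. The range was narrow, from −1.12 to −0.51. Kif15, a kinesin that keeps spindle poles apart, changed by −1.12 ± 0.079 (SE, edgeR adjusted p = 3.75e-09), Ccnb1 by −1.12 ± 0.08 (SE, edgeR adjusted p = 4.49e-09) and Ube2c by −1.11 ± 0.08 (SE, edgeR adjusted p = 5.18e-09). These were the 3 largest falls, and none of the 3 overlapped between the groups. The smallest were those of Ndc80, which gives the kinetochore complex its name (−0.51 ± 0.084 SE, edgeR adjusted p = 6.16e-05), Kif23, a midzone kinesin (−0.54 ± 0.074 SE, edgeR adjusted p = 8.72e-06), and Foxm1 (−0.64 ± 0.061 SE, edgeR adjusted p = 1.45e-07). Role by role, the median was −1.0 for the 2 genes of the anaphase promoting complex, −0.99 for the 9 entry kinases and cyclins, −0.92 for the 4 passenger genes and the 2 chromosome genes and −0.84 for the 4 checkpoint genes. It was −0.82 for the 6 kinesins, −0.77 for the 6 kinetochore genes, −0.71 for the 4 spindle genes and −0.70 for the 4 cytokinesis genes. Among the classic markers the values were −0.94 for Mki67, −0.90 for Top2a, −0.87 for Cdk1, −0.84 for Plk1 and −1.09 for Aurkb.

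Culture, age and the use of the dorsal bud cannot be told apart in this comparison. Marker sums of other cell types moved in it as well, and 29.3% of all tested genes were lower and 28.5% higher. The 6 erythroid markers summed to 3749 to 4228 in wt and 127 to 174 in control, with 5 of 6 lower. The 6 leukocyte markers summed to 1278 to 1295 and 2679.5 to 2919.6, with 5 of 6 higher, and the 8 epithelial markers to 26129 to 28192 and 36002 to 40866, with 5 of 8 higher. Their part in the levels of the mitotic genes was not tested. With library size alone as the scale, the median of the 41 was −0.994, that of all genes was −0.167, and 3347 of all genes were higher and 6809 lower, against 4631 and 4758 with TMM scaling.

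**Figure D3:**
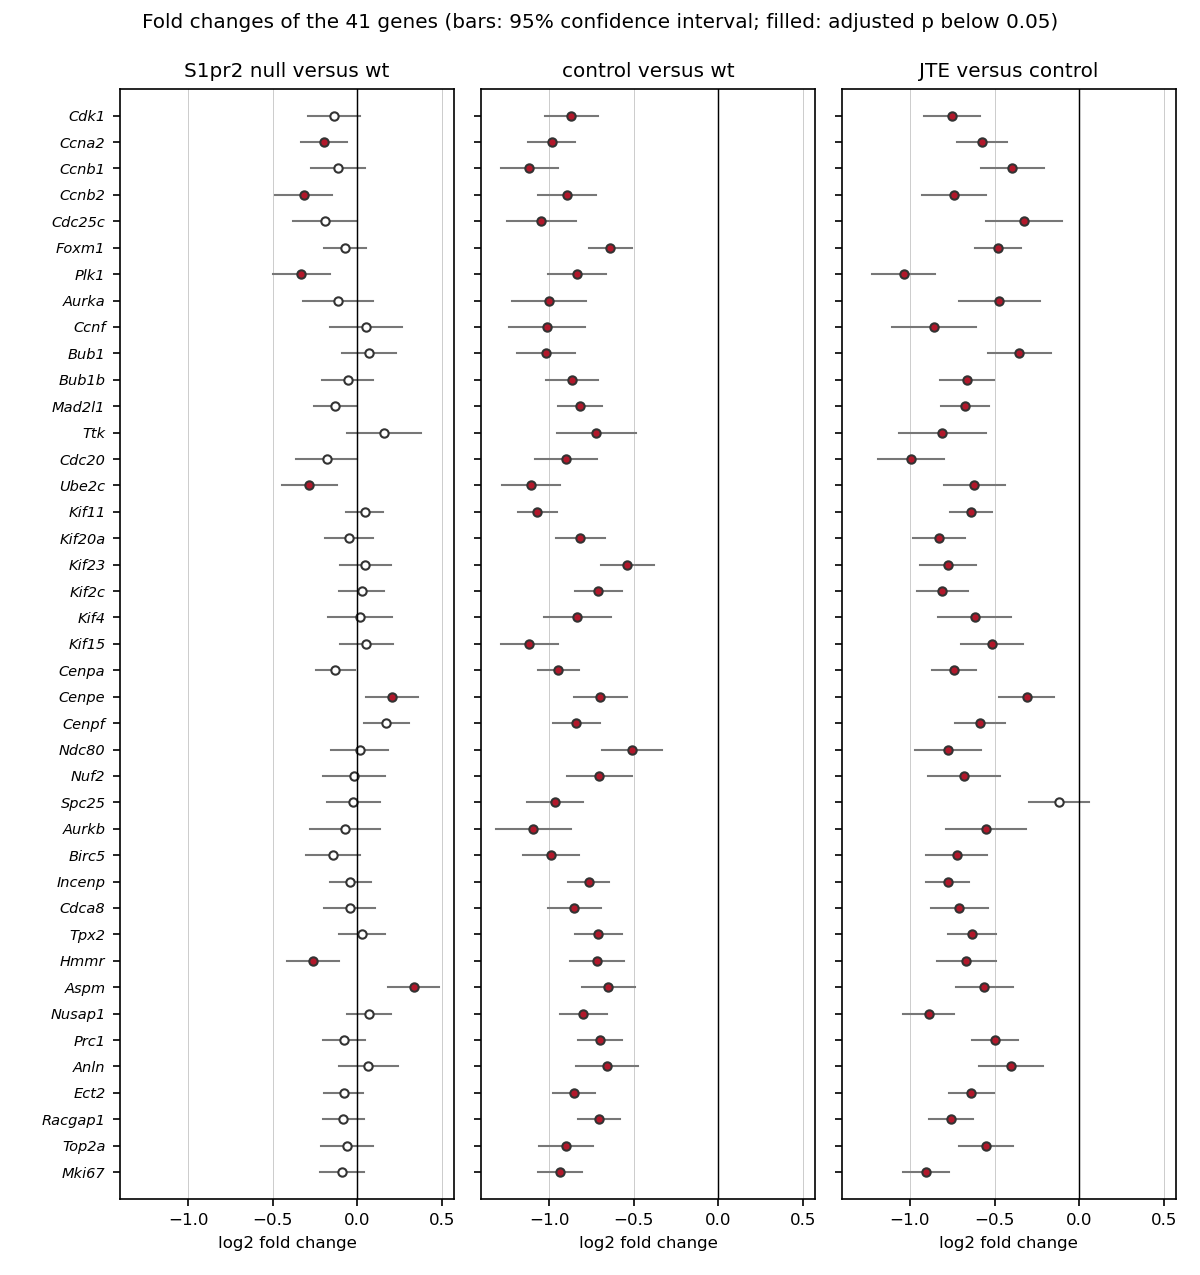
Each point is the log2 fold change of 1 of the 41 genes from the edgeR fit, with its 95% confidence interval as a bar and filled where the adjusted p was below 0.05, in 3 comparisons that share the wt or the control libraries. The genotype panel scatters around 0 with 7 filled points, the culture panel has 41 filled points at or below −0.51, and the JTE panel has 40, with Spc25 open.

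The central comparison asked what block of S1pr2 with JTE013 does to explants. With JTE, 40 of the 41 genes fell below control and 0 rose (edgeR adjusted p below 0.05), against 26.2% lower and 25.9% higher over all tested genes, 52.2% in all. For 40 genes every JTE library lay below every control library, as for 28.3% of all genes, with 28.4% entirely above. The median log2 fold change was −0.66, with 0 over all genes, and the summed level changed by −36.9%. Plk1 changed most, from 873 ± 39.6 (SD, n = 3) to 425 ± 25.6 (SD, n = 3), which is −1.04 ± 0.089 (SE, edgeR adjusted p = 6.64e-08). Cdc20, at 1264, 1239 and 1217 in control and 590.4, 583 and 691 in JTE, changed by −0.99 ± 0.093 (SE, edgeR adjusted p = 1.88e-07). Mki67 followed with −0.91 ± 0.064 (SE, edgeR adjusted p = 7.08e-09).

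Genes of every role were lower with JTE. All 9 entry kinases and cyclins were lower, with −0.75 for Cdk1, −0.74 for Ccnb2, −0.58 for Ccna2 and −0.86 for Ccnf, an F-box cyclin, and smaller values for Aurka (−0.47), Ccnb1 (−0.40) and Foxm1 (−0.48). All 4 checkpoint genes were lower, from Ttk, the checkpoint kinase Mps1, at −0.81 to Bub1 at −0.35. The 6 kinesins ranged from −0.83 for Kif20a, which acts in cytokinesis, to −0.52 for Kif15. Among them Kif2c, which takes microtubules apart at centromeres, changed by −0.81 and Kif11, which pushes spindle poles apart, by −0.64. Kif20a and Kif4 share 25.2% and 14.5% of their words with overlapping genes on the other strand. All 4 passenger genes were lower, namely Incenp (−0.78), Birc5 (−0.72), Cdca8 (−0.71) and Aurkb (−0.55). All 4 spindle genes were lower, among them Nusap1, which bundles microtubules (−0.89), and Tpx2, the activator of Aurka (−0.63). So were the 4 cytokinesis genes, of which Racgap1, the partner of Kif23 in centralspindlin, changed by −0.76 and Anln, an organiser of the contractile ring, by −0.40.

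Of the 6 kinetochore genes, 5 were lower. Ndc80 changed by −0.78 ± 0.092 (SE, edgeR adjusted p = 2.64e-06), Cenpa, the histone H3 variant of centromeres, by −0.74 ± 0.062 (SE, edgeR adjusted p = 5.42e-08), Nuf2 by −0.68 ± 0.10 (SE, edgeR adjusted p = 2.62e-05) and Cenpf by −0.59 ± 0.069 (SE, edgeR adjusted p = 2.55e-06). Cenpe was at 787, 886 and 824 in control and 622, 625 and 763 in JTE, a change of −0.31 ± 0.078 (SE, edgeR adjusted p = 0.00284). Spc25, which sits in one complex with Ndc80 and Nuf2, did not pass, with −0.12 ± 0.084 (SE, edgeR adjusted p = 0.241) and a 95% interval of −0.30 to 0.056, an interval that lies above the estimates for Ndc80 and Nuf2. Spc25 shares none of its words with another gene and overlaps no other counted gene. Of the fits that left out 1 library, that without JTE 1 put it past the threshold (−0.22, edgeR adjusted p = 0.038). Cdc25c, the phosphatase that switches Cdk1 on, was among the 3 smallest changes (−0.33 ± 0.11 SE, edgeR adjusted p = 0.0162), from 141, 141 and 163 to 108, 113 and 133, a call that was lost without control 3, JTE 1 or JTE 2, with an edgeR adjusted p of up to 0.0857.

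The marker sums of other cell types also moved in this comparison, where 26.2% of all tested genes were lower and 25.9% higher. The 6 leukocyte markers summed to 888 to 1023 in JTE and 2679.5 to 2919.6 in control, with 6 of 6 lower. The 8 epithelial markers summed to 24269.6 to 30219 and 36002 to 40866, with 5 of 8 lower, and the 6 endothelial markers to 4296 to 4839 and 5766 to 7022, with 5 of 6 lower. The 9 mesenchymal markers summed to 139763 to 171845 and 128952 to 135537, with 3 of 9 higher and 1 lower, and the 5 markers of neural crest and neurons to 857 to 966 and 1036 to 1178, with 1 higher and 1 lower. No marker was at 0 in any group, and the part of these cell types in the fall of the mitotic genes was not tested.

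The responses to JTE in culture and to the genotype label in fresh pancreas were compared by their difference, the JTE minus control change less the S1pr2 null minus wt change. Of the 41 genes, 37 had a more negative response to JTE (edgeR adjusted p below 0.05) and 0 a less negative one, against 21.5% and 21.5% of all tested genes, 42.9% in all. The median difference was −0.61, and 0.0043 over all genes. Ttk (−0.96 ± 0.16 SE, edgeR adjusted p = 0.000144), Nusap1 (−0.96 ± 0.094 SE, edgeR adjusted p = 7.38e-07) and Ccnf (−0.91 ± 0.16 SE, edgeR adjusted p = 0.000191) had the most negative differences as labelled. This order rests on the direction of the genotype label, and so does the count. Ttk changed by −0.81 with JTE and by 0.16 with the genotype as labelled, and Plk1 by −1.04 and −0.33. The fresh levels of Ttk were 462, 450.2 and 475 in wt and 472, 546 and 527 in the libraries labelled S1pr2 null, which overlapped, and in culture they were 244, 281 and 316 in control and 147, 141 and 191 in JTE, which did not. Nusap1 was at 1122, 1091 and 1102 and 1194, 1132 and 1153 in the fresh groups and at 621, 642 and 644 and 359, 326 and 345 in control and JTE. Nusap1 was thus above wt in all 3 libraries labelled S1pr2 null, without passing the test there, and below control in all 3 JTE libraries. The 4 genes that did not pass were Spc25 (−0.10 ± 0.11 SE, edgeR adjusted p = 0.508), Cdc25c (−0.13 ± 0.14 SE, edgeR adjusted p = 0.46), Ccnb1 (−0.28 ± 0.12 SE, edgeR adjusted p = 0.0593) and Aurka (−0.36 ± 0.15 SE, edgeR adjusted p = 0.0639). The 2 responses come from tissue of different age and treatment time, so that the agent and the setting cannot be told apart.

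Explants with both JTE013 and CTGF were set against control and then against JTE. Against control, 40 of the 41 genes were lower in JTE + CTGF and 0 higher (edgeR adjusted p below 0.05), where 33% of tested genes were lower and 28.1% higher, 61.1% in all. For 40 genes all 3 libraries lay below control, as for 34.4% of all genes, with 30.4% entirely above. The median was −0.87 (−0.032 over all genes), and the summed level changed by −47.9%. This comparison and that of JTE with control share the control libraries. Gene length moved with the change here as well: 48.5% of all tested genes over 6 kb of exon were lower, against 24.8% of those under 2 kb. Mki67 changed by −1.68 ± 0.067 (SE, edgeR adjusted p = 7.49e-12), Aspm by −1.53 ± 0.089 (SE, edgeR adjusted p = 5.09e-10) and Plk1 by −1.23 ± 0.091 (SE, edgeR adjusted p = 8.41e-09). Aspm counts were 497, 531 and 549.9 in control, 327, 335 and 406 in JTE and 181, 196 and 168 in JTE + CTGF, with no overlap between the 3 groups. At the other end, Spc25 changed by 0.057 ± 0.084 (SE, edgeR adjusted p = 0.573), Aurka by −0.45 ± 0.11 (SE, edgeR adjusted p = 0.0029) and Ube2c by −0.48 ± 0.086 (SE, edgeR adjusted p = 0.000131). Side by side, the values without and with CTGF were −0.75 and −0.63 for Cdk1, −0.40 and −0.56 for Ccnb1, −0.55 and −1.01 for Top2a, −0.55 and −0.81 for Aurkb and −0.48 and −0.79 for Foxm1. The 6 leukocyte markers summed to 695 to 1051 in JTE + CTGF and 2679.5 to 2919.6 in control, with 6 of 6 lower, the 6 endothelial markers to 4004 to 4736 and 5766 to 7022, with 5 lower and 1 higher, and the 8 epithelial markers to 26628 to 29056 and 36002 to 40866, with 5 lower and 1 higher. The 6 erythroid markers summed to 477 to 877 and 127 to 174, with 3 higher, and the 9 mesenchymal markers to 154382 to 162535 and 128952 to 135537, with 2 higher and 2 lower. Their part in the levels of the mitotic genes was not tested.

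Set directly against JTE, 18 of the 41 genes were lower in JTE + CTGF and 0 higher (edgeR adjusted p below 0.05), against 16.8% and 13.6% of all tested genes, 30.4% in all. For 17 genes every JTE + CTGF library lay below every JTE library, as for 20.6% of all genes, with 19.6% entirely above. The median log2 fold change was −0.20 (−0.0022 over all genes), and the summed level changed by −17.4%. Aspm changed by −0.97 ± 0.092 (SE, edgeR adjusted p = 1.37e-06), Mki67 by −0.78 ± 0.067 (SE, edgeR adjusted p = 5.67e-07) and Cenpf by −0.62 ± 0.075 (SE, edgeR adjusted p = 1.37e-05). Cenpf stood at 601, 635 and 729 in JTE and 421, 452 and 409 in JTE + CTGF, without overlap. Top2a (−0.45 ± 0.076 SE, edgeR adjusted p = 0.000286) and Foxm1 (−0.30 ± 0.068 SE, edgeR adjusted p = 0.00262) were also lower. By role, both chromosome genes, 3 of 4 spindle genes (Aspm, Hmmr, Tpx2), 3 of 4 cytokinesis genes (Prc1, Anln, Ect2), 4 of 6 kinesins (Kif4, Kif11, Kif15, Kif23) and 2 of 4 checkpoint genes (Bub1b, Bub1) were lower. Of the 6 kinetochore genes Cenpf and Cenpe were lower, of the passenger genes Incenp, and of the 9 entry kinases and cyclins only Foxm1.

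Genes that did not pass included the entry genes, with 0.12 for Cdk1 (95% interval −0.051 to 0.30), −0.16 for Ccnb1 (−0.36 to 0.038), −0.19 for Plk1 (−0.40 to 0.0088) and −0.25 for the passenger kinase Aurkb (−0.51 to −0.00094). Without JTE + CTGF 2, Plk1 (−0.34, edgeR adjusted p = 0.00908) and Aurkb (−0.44, edgeR adjusted p = 0.00548) passed the test, and Cdk1 was at −0.016. Without JTE + CTGF 1, Plk1 was at −0.096 and Aurkb at −0.092, and neither passed. The highest values were those of Spc25 (0.18 ± 0.084 SE, edgeR adjusted p = 0.124), Ube2c (0.14 ± 0.088 SE, edgeR adjusted p = 0.243) and Cdk1. Ube2c was at 581, 531 and 619 in JTE and 532, 690.5 and 691 in JTE + CTGF, which overlapped. Single libraries moved the counts of this comparison. Without JTE 3 the median was −0.096 and 12 genes were lower, and without JTE + CTGF 2 the count was 22. Without JTE + CTGF 1, 3 genes were higher, Spc25 (0.26, edgeR adjusted p = 0.032) and Ube2c (0.26, edgeR adjusted p = 0.0146) among them.

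Gene length moved with the change after CTGF. By summed exon length, 0 of 3 genes under 2 kb, 2 of 17 of 2 to 4 kb, 10 of 14 of 4 to 6 kb and 6 of 7 over 6 kb were lower in JTE + CTGF than in JTE. Over all genes tested the shares lower in these length classes were 6.01%, 6.7%, 18% and 46.5%. Across the 41 genes the Spearman correlation of length and log2 fold change was −0.71, against −0.41 across 16245 genes, as a description, since genes share the libraries and are not independent. In the comparison of JTE with control it was 0.30 across the 41 genes and 0.070 across all tested, and in that of JTE + CTGF with control −0.37 and −0.16. Aspm, Cenpf and Mki67, the 3 genes with the lowest values, are also the 3 longest, at 11491, 11353 and 10075 bases. In a fit with an offset for length, added after the trend was seen, 15 genes were lower, 13 of them among the 18, and the correlation was −0.22. In that fit 1665 of the 16245 genes were lower and 1963 higher, against 2735 and 2206 without the offset. Top2a then did not pass (−0.18, edgeR adjusted p = 0.11), Kif15, Tpx2, Anln and Ect2 also lost their calls, and Plk1 and Cdc20 gained one. Aspm was at −0.62 and Mki67 at −0.47 with the offset, both past the test. What gives rise to the length trend was not tested. Of the cell type markers, the 6 erythroid genes summed to 477 to 877 in JTE + CTGF and 122 to 189 in JTE. Of these, 3 of 6 were higher, against 13.6% of all tested genes. The leukocyte sums overlapped. The part of these cell types was not tested.

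**Figure D4:**
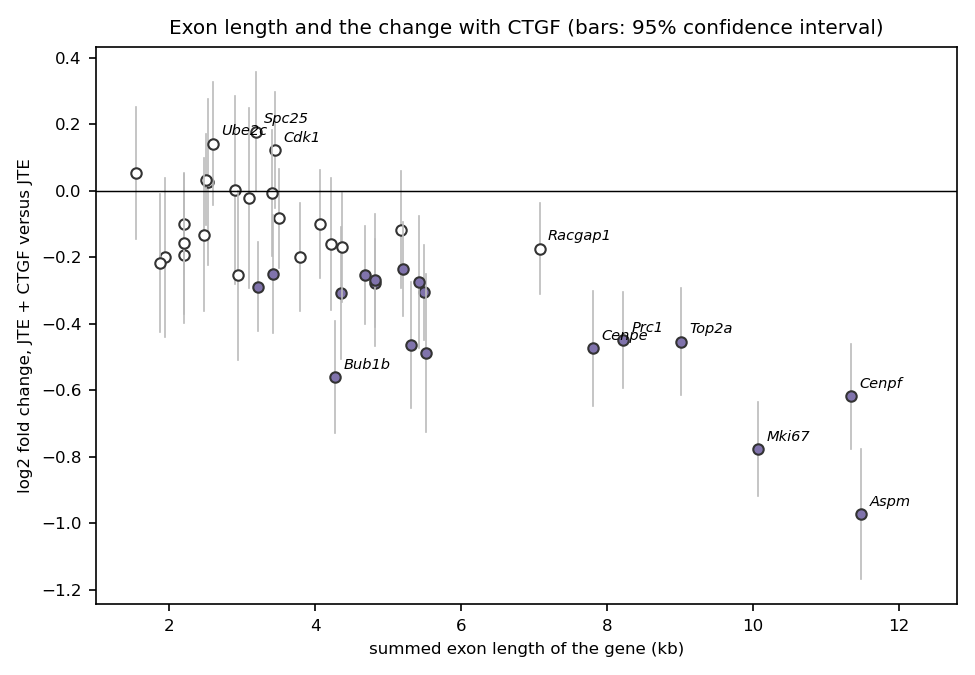
Each point is 1 of the 41 genes, placed by summed exon length in kb and by its log2 fold change in JTE + CTGF relative to JTE, with the 95% confidence interval as a bar and filled where the adjusted p was below 0.05. The 3 longest genes, Mki67, Cenpf and Aspm, lie lowest, at −0.62 or below, and the genes above 0 are all under 4 kb.

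A further 52 genes of mitosis were listed, from condensins to centromere proteins. In control explants 51 of the 52 were lower than in wt and 1 was higher, against 29.3% and 28.5% of all tested genes. In JTE 41 were lower than in control and 0 higher, with a median of −0.49, against 26.2% and 25.9% of all tested genes. The largest falls with JTE were Melk, a kinase (−0.97 ± 0.11 SE, edgeR adjusted p = 1.77e-06), Kif22, a chromosome-arm kinesin (−0.96 ± 0.088 SE, edgeR adjusted p = 1.59e-07), and Esco2, which acetylates cohesin (−0.95 ± 0.10 SE, edgeR adjusted p = 8.87e-07). Dsn1 (0.063), Ska1 (0.023) and Ska2 (0.015), all kinetochore proteins like Spc25, were the highest and did not pass. In JTE + CTGF relative to JTE, 21 were lower and 1 was higher, against 16.8% and 13.6% of all tested genes. Iqgap3 was lowest (−0.67), and Cks1b, a small Cdk-binding protein, was the 1 higher (0.30 ± 0.058 SE, edgeR adjusted p = 0.000975). In the libraries labelled S1pr2 null, 6 were lower and 3 higher than in wt, against 13.3% and 12.6% of all tested genes. Neither count is above its share. Pttg1, securin, which guards sister cohesion until anaphase, was the highest of these, with 196 ± 18.3 (SD, n = 3) in wt and 443 ± 34.3 (SD, n = 3) in those labelled S1pr2 null, or 1.17 ± 0.12 (SE, edgeR adjusted p = 2.12e-06). With JTE, Pttg1 changed by −0.85 ± 0.13 (SE, edgeR adjusted p = 3.06e-05), and its responses differed by −2.02 ± 0.17 (SE, edgeR adjusted p = 1.63e-07).

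S phase, the replication phase that precedes G2, was covered by a list of 25 genes. All 25 were lower in control than in wt, with a median of −0.66, where 29.3% of all tested genes were lower and 28.5% higher. With JTE, 24 were lower and 1 higher than in control, with a median of −0.66, against 26.2% and 25.9% of all tested genes. Cdc6, which loads the replicative helicase, changed by −1.28 ± 0.11 (SE, edgeR adjusted p = 6.43e-08), Gins1 by −1.04 ± 0.13 (SE, edgeR adjusted p = 4.89e-06) and the flap nuclease Fen1 by −1.0 ± 0.068 (SE, edgeR adjusted p = 4.55e-09). The 1 higher was Ccne1, the cyclin E of S phase entry (0.24 ± 0.092 SE, edgeR adjusted p = 0.0383). With CTGF, 9 were lower than in JTE and 0 higher, against 16.8% and 13.6% of all tested genes. In the libraries labelled S1pr2 null, Fen1 (−0.25) and Tyms (−0.18) were lower and none was higher, against 13.3% and 12.6% of all tested genes. Summed levels of the S phase genes changed by −35.3% with JTE and by −0.302% in the libraries labelled S1pr2 null.

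**Figure D5:**
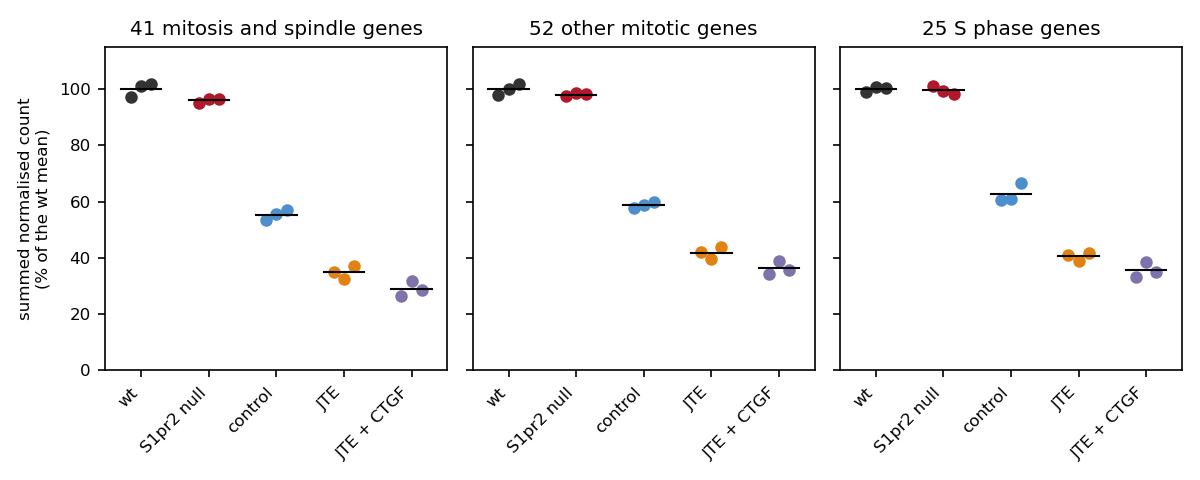
Points are the summed normalised read counts of 3 gene lists in each of the 15 libraries, as a percent of the wt mean, and lines are group means. The sums of the 41 genes, of 52 other mitotic genes and of 25 S phase genes step down from fresh pancreas to control and to JTE in the same order.

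The transcription factors that drive or silence these genes were looked at in a list of 20. In JTE, 9 were lower than in control and 5 higher, against 26.2% and 25.9% of all tested genes. The 5 of 20 higher are near that share. Those lower included Mybl2, the B-Myb partner of Foxm1 (−0.89 ± 0.14 SE, edgeR adjusted p = 5.37e-05), E2f2 (−1.21 ± 0.14 SE, edgeR adjusted p = 2.08e-06) and E2f7 (−0.89 ± 0.087 SE, edgeR adjusted p = 2.99e-07), the latter a repressor. Rbl2, the p130 pocket protein that silences cell cycle genes in resting cells, was higher (0.40 ± 0.066 SE, edgeR adjusted p = 8.18e-05), as was Lin54, which binds the CHR (0.53 ± 0.088 SE, edgeR adjusted p = 8.34e-05). E2f1 changed by −0.10 ± 0.081 (SE, edgeR adjusted p = 0.297). Between control and wt, Mybl2 (−0.82) and E2f1 (−0.50) were lower and Rb1 was higher (0.58). With CTGF, E2f7 (−0.65), E2f8 (−0.58) and Rbl1 (−0.39) were lower than in JTE, and Mybl2 stood at −0.35 ± 0.16 (SE, edgeR adjusted p = 0.105). In the libraries labelled S1pr2 null, Lin37, a MuvB subunit, was lowest (−0.80 ± 0.12 SE, edgeR adjusted p = 0.000199), and Mybl2 (−0.17) did not pass.

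A list of 11 genes that hold back mitosis or the cell cycle was also read. In JTE, 7 of the 11 were lower than in control and 3 higher, against 26.2% and 25.9% of all tested genes. The 3 of 11 higher are near that share. The higher ones were Gadd45a, a stress-response gene (0.95 ± 0.10 SE, edgeR adjusted p = 1.18e-06), and the Cdk inhibitors p27 (Cdkn1b, 0.40 ± 0.048 SE, edgeR adjusted p = 3.17e-06) and p21 (Cdkn1a, 0.21 ± 0.079 SE, edgeR adjusted p = 0.0349). Cdkn1c, which encodes p57, was at −0.043 ± 0.084 (SE, edgeR adjusted p = 0.695). Lower were Btg2, an antiproliferative gene (−0.79 ± 0.12 SE, edgeR adjusted p = 3.45e-05), Fbxo5, an inhibitor of the anaphase promoting complex that is itself made in cycling cells (−0.55 ± 0.10 SE, edgeR adjusted p = 0.000142), and Cdkn2c (−0.49 ± 0.13 SE, edgeR adjusted p = 0.00488). In the libraries labelled S1pr2 null the Cdk inhibitors differed from wt, with Cdkn1a (−0.47 ± 0.081 SE, edgeR adjusted p = 0.000404) and Cdkn1b (−0.14 ± 0.05 SE, edgeR adjusted p = 0.0461) lower than in wt and Cdkn1c higher (0.31 ± 0.084 SE, edgeR adjusted p = 0.0112). The responses of Cdkn1a and Cdkn1b differed by 0.68 and 0.54, both past the test. In control explants Btg2 (1.47), Btg1 (0.78) and Cdkn1b (0.40) were higher than in wt, and Cdkn1c was lower (−0.70). With CTGF, Btg2 (0.47), Btg1 (0.28) and Fzr1 (0.23), an activator of the anaphase promoting complex in G1, were higher than in JTE. None of the 11 was lower. Of all tested genes 13.6% were higher and 16.8% lower there.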

How the data were processed

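Per the study's methods and processing notes, the authors aligned single-end reads of poly(A) RNA from strand-specific libraries to mm10 with GSNAP and counted uniquely aligned reads per Ensembl gene with featureCounts (1.4.6). The deposited values are these raw counts, not normalised, and whether counting used strand is not given in the sources used here. Where exons of 2 genes overlap on opposite strands, their reads are therefore uncertain.

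The 15 libraries were grouped by title and fitted together in edgeR 4.0.16 (R 4.3.3), with TMM scaling, the filterByExpr minimum, the quasi-likelihood test and Benjamini-Hochberg adjustment over 16245 genes. A gene was called at an adjusted p below 0.05. Library totals were 11402804 to 13828737 counts. Each library is a pool, so p-values measure the spread between pools. The study's thresholds were used as an alternative, as were DESeq2 1.42.0, other scalings, no filter, a replicate block and leaving out each library. The scripts were tested on simulated data. Symbols came from GENCODE M21, which matched 24750 of 25292 IDs (97.9%). Promoters are RefSeq windows on GRCm38.p6, the assembly of mm10. Python 3.11.15 and matplotlib 3.10.9 were used for figures.

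The members and all lists were chosen with earlier results of these data known. Named in every library are Mki67, Top2a, Cdk1, Ccnb1, Plk1, Aurkb and Foxm1, and in each comparison the 3 members with the lowest and the 3 with the highest log2 fold change. Members that did not pass where most did, or passed against most, could also be named. Genes of the other lists follow the same rule of 3, with Mybl2, E2f1, Cdkn1a, Cdkn1b and Cdkn1c added. Further members, named as examples of a role, and Pttg1 with JTE were chosen after their values were seen.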

Additional observations from a re-analysis of the deposited data

Results flagged for a closer look

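The response to JTE differed from that to the genotype label by the interaction test of edgeR in 37 of the 41 genes, with a median difference of −0.6076 on the log2 scale. All 37 differences were negative, against 21.5% negative and 21.5% positive over all tested genes, 42.9% in all. The median over all genes was 0.0043. Each value is the JTE minus control change less the S1pr2 null minus wt change, and each rests on the genotype label. Among the genes given in every library, the difference was −0.8151 for Mki67, −0.4917 for Top2a, −0.6135 for Cdk1, −0.7067 for Plk1, −0.4798 for Aurkb and −0.4091 for Foxm1. As labelled, the most negative values were those of Ttk at −0.9649, Nusap1 at −0.9596 and Ccnf at −0.9066, an order that rests on the direction of the label. The fresh and the cultured tissue differ in age and setting, which cannot be told apart from the agent.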

How the results depend on the processing

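Directions were compared across the alternative fits for the members that the naming rule gives in each comparison. No called value among these turned direction. For JTE + CTGF against JTE, some values that did not pass turned sign, among them Cdk1 (−0.016 without JTE + CTGF 2). With the length offset the sign turned for Ccnb2 (0.054 to −0.062), Aurka (0.025 to −0.0499), Ttk (0.0026 to −0.053), Cenpa (0.034 to −0.043) and Racgap1 (−0.17 to 0.011). None of these passed with or without the offset. In the comparison of S1pr2 null with wt, 9 members were lower when only the libraries compared were fitted. Of all 15527 genes tested in that fit, 2631 were lower and 2757 higher. With library size alone or with the length offset, 1 member was higher, where 1917 and 1940 of all 16245 genes were higher. Among members with under 5% shared sequence, 2 of 28 were lower, against 2156 of all 16245 genes. The length offset and the limit on shared sequence were chosen after seeing the data. By the study's criterion (adjusted p below 0.1, mean count over 100, fold under 0.6 or over 1.6), 0 were lower and 0 higher in the comparison of S1pr2 null with wt. By it 15 were lower in JTE than in control, and 2 were lower in JTE + CTGF than in JTE. This criterion asks for a larger fold, and its share over all genes was not computed. With library size alone the median for control against wt was −0.994. Without 1 library in turn there were 3 to 7 lower and 1 to 3 higher genes for S1pr2 null against wt, a median of −0.9373 to −0.769 for JTE + CTGF against control, and for JTE + CTGF against JTE 12 to 22 lower and 0 to 3 higher genes with a median of −0.2625 (without JTE 2) to −0.09566 (without JTE 3). The cause was not tested.

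Same-numbered libraries did not deviate together (correlations from −0.0975 to 0.228), so the numbers were not taken as pairs. With a replicate block, 5 genes were lower and 3 higher for S1pr2 null against wt, 38 differed in response, and 40, 40, 18 and 41 were lower in JTE against control, JTE + CTGF against control, JTE + CTGF against JTE and control against wt. Of all 16245 genes tested with the block, 2097 were lower and 1963 higher for S1pr2 null against wt. The response difference was lower for 3425 and higher for 3435. In the later comparisons, in the same order, 4205, 5294, 2656 and 4687 were lower. Scaling levels by length changes no comparison within a gene and was not run apart. With 3 pools a group, small changes can be missed.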
